A study of Mus musculus with 24 samples.

Results

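The 7 genes described here, Meg3, Rian, Mirg, Snhg11, Malat1, Miat and Neat1, are long noncoding RNAs that stay largely in the nucleus, and they were taken by name from the 32962 genes of the count matrix. All 7 had a row, and their unique molecular identifiers (UMIs, tags that count each captured RNA molecule once) were summed per sample within each deposited cell class. The samples were nuclei from the lumbar spinal cord of male and female mice aged 8 to 11 weeks, of the ICR/CD-1 strain, an outbred one, with the dorsal root ganglia removed, and were profiled with Drop-seq, a droplet method. The 24 samples comprised 9 controls, 10 samples from mice given formalin and 5 from mice run on a rotarod, a motor task. Formalin mice were habituated for 1 h and then received 30 µl of 2% paraformaldehyde in the sole of each hindpaw, and rotarod mice were habituated for 1 h and then ran on a rod that sped up within 5 minutes to 40 rotations per minute. How long after the stimulus the cords were taken is not stated in these sources, and no treatment of the controls is named beyond their group.

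The labels name the tissue as brain, whereas the protocol describes the cord. In the classed nuclei the lumbar Hox gene Hoxa9 had 2350 UMIs and Hoxa10 had 385, while the forebrain genes Emx1 and Tbr1 had 3 and 8. Neurod2, also on the forebrain list, had 120, and the dorsal root ganglion genes Scn10a and Avil had 102 and 78. Each sample contributed 750 barcodes and 549903 to 3243587 UMIs. Among formalin samples, the 5 pairs numbered 5 apart (1 with 6, up to 5 with 10) resembled each other: over 3560 genes in neurons their deviations from the group mean correlated at 0.225 to 0.549, against -0.404 to 0.153 for the other 40 formalin pairs. Chi-square values of their counts, per degree of freedom, were 1.33 to 2.13, against 2.61 to 6.84 for the other formalin pairs, and 0 barcode sequences were shared within those pairs. These values do not show whether paired samples come from 1 animal. The 10 samples of the labels were kept, and results that turn on them are also given with each pair merged. The 3 control samples whose titles end in cx, a suffix the sources do not explain, are controls 7, 8 and 9. Nothing in the labels shows that samples of a group came from separate mice. The tests treat samples as independent and rest on the spread between these samples. Their p-values would be too small if samples share an animal.

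Meg3, Rian and Mirg lie in the imprinted Dlk1-Dio3 domain and are transcribed in the same direction from the chromosome inherited from the mother; Meg3 is a tumour-suppressor RNA, Rian hosts small nucleolar RNAs and Mirg hosts a cluster of microRNAs. Snhg11 is a small nucleolar RNA host gene that is abundant in brain. Malat1 is a scaffold of nuclear speckles, where splicing factors gather, Neat1 is the architectural RNA of paraspeckles, and Miat, also called Gomafu, forms nuclear foci in neurons and binds splicing factors.

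In GENCODE M21 on GRCm38, Meg3 was annotated at chr12:109541001-109571726, Rian at chr12:109603940-109661716 and Mirg at chr12:109729764-109749460, all on the plus strand, with gaps of 32.2 kb and 68.0 kb between neighbours. Within them on the same strand lay 1, 3 and 14 RefSeq microRNA hairpins. Malat1, at chr19:5795690-5802672, and Neat1, at chr19:5824708-5845478, are both on the minus strand and 22 kb apart. Snhg11 was at chr2:158375638-158386145 on the plus strand and Miat at chr5:112213228-112229395 on the minus strand. GENCODE gave Snhg11 the type protein-coding, whereas RefSeq gave it the type long noncoding RNA. The sources do not say whether counting used strand. Gm37376 overlaps Malat1 on the opposite strand and held 41803 UMIs, Gm26906 overlaps Meg3 with 1565 and Gm26953 overlaps Miat with 278, and their reads cannot be told apart from those of the partner without strand.

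Promoter windows, from 250 bases before to 50 after the start in RefSeq GRCm38.p6, were found for 6 of the 7 genes. Shown are Meg3 (the first of 2 windows), the window of Snhg11, the one of the 7 called between conditions in neurons, and that of Malat1, which took the largest share of UMIs of the 7 in every class. Capitals mark matches to the cyclic AMP response element TGACGTCA and the TATA box TATAAA on either strand, with 2 overlapping TATA matches in Meg3.

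Meg3 promoter, chr12:109540746-109541045, plus strand: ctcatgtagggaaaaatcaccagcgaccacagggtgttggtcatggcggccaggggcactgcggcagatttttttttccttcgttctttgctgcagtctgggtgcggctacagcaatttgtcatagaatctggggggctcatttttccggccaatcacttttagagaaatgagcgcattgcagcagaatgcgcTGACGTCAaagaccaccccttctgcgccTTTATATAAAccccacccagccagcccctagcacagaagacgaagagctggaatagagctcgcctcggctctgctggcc

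Snhg11 promoter, chr2:158375463-158375762, plus strand: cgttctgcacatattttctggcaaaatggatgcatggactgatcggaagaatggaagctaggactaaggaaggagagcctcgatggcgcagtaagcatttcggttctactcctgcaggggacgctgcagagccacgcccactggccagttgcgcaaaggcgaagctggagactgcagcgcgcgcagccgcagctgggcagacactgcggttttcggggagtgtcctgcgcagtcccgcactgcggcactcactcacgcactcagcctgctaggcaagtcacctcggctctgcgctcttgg

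Malat1 promoter, chr19:5802623-5802922, minus strand: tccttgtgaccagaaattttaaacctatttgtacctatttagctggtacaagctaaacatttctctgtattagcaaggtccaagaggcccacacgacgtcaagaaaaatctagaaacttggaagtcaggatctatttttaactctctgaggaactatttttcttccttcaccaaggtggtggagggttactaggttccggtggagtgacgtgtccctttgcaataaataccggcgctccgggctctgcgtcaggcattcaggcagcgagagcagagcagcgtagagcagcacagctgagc

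The Meg3 window held TGACGTCA 57 bases before the start, letters found in 1.79% of 32851 promoter windows of the same length, and its first TATAAA match 29 bases before the start, letters found in 13.6%. Neither run of letters was in the windows of Snhg11, Malat1, Rian, Mirg or Miat, nor in the second window of Meg3. The windows of Mirg (chr12:109734731-109735030) and Miat (chr5:112228899-112229198) lay inside the genes as placed above and did not cover the GENCODE starts. The AP-1 letters TGAGTCA (held by 5.20% of windows), the GC box GGGCGG (35.7%), the E-box CACGTG (7.15%) and the letters GCGTG (32.4%), also searched on both strands, were absent from the windows of Meg3 and Malat1, and that of Snhg11 held GCGTG 2 times and none of the other motifs searched. These matches describe the letters only.

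Meg3, Rian, Mirg, Snhg11 and Miat were neuronal RNAs in these nuclei, and Neat1 and Malat1 were higher outside neurons. Levels are given as CPM, UMIs of the gene per 1000000 UMIs of the same nuclei, as mean ± SD over samples with at least 10 nuclei of the class. The classes were made by the authors from these nuclei and genes, so the differences between classes are described and were not tested. Summed over the 7 genes, they took 7.37% ± 1.06 (SD, n = 24) of all UMIs in neurons, 9.16% ± 1.42 (n = 24) in the meningeal or Schwann class, 7.11% ± 1.97 (n = 23) in oligodendrocytes, 5.81% ± 1.54 (n = 23) in astrocytes and 5.27% ± 1.13 (n = 23) in the endothelial or vascular class. The similar sums were reached with different genes. Malat1 supplied 3.71% of neuronal UMIs and Meg3 2.92%, while in meningeal or Schwann nuclei Malat1 supplied 8.35% and Meg3 0.566%.

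Meg3 in neurons ranged from 20273 to 35106 CPM with a median of 29145, a mean of 29154 ± 2848 (SD, n = 24). In oligodendrocytes it was 5934 ± 2031 (2896 to 10152), in astrocytes 5734 ± 2244 (2553 to 10950.5), in the meningeal or Schwann class 5655 ± 1590 (2910 to 9805) and in the endothelial or vascular class 4237 ± 1930 (1365 to 10179). The neuronal range overlapped none of these, and neurons were higher in every sample, by 4.94-fold, 5.11-fold, 5.16-fold and 6.86-fold in the means. The oligodendrocyte, astrocyte and meningeal or Schwann levels did not separate: oligodendrocytes exceeded astrocytes in 16 of 23 samples and astrocytes exceeded meningeal or Schwann nuclei in 12 of 23. The endothelial or vascular class was below the meningeal or Schwann class in 22 of 23. In the 6 samples with enough oligodendrocyte precursor nuclei the mean was 13955 ± 4716, and in the 4 with enough microglia it was 8730 ± 4884. All the classes outside neurons also carried neuronal markers. The 9 neuronal marker genes summed to 7272 CPM in precursor nuclei and 2640 in microglia, against 6951 in neurons. They summed to 2318 CPM in the meningeal or Schwann class, 1979 in oligodendrocytes, 1897 in astrocytes and 1495 in the endothelial or vascular class. The part of neuronal RNA in these Meg3 levels was not tested.

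Rian was also highest in neurons. It was 672 ± 56.9 CPM in neurons (541 to 767, median 670) and 172 ± 52.7, 145 ± 63.0, 126 ± 56.0 and 95.9 ± 73.5 in the meningeal or Schwann, astrocyte, oligodendrocyte and endothelial or vascular classes. The neuronal range lay above all 4. Neighbouring levels outside neurons differed by less than the spread of their differences, as in astrocytes over oligodendrocytes, seen in 13 of 23 samples.

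Mirg, the microRNA host, was the most neuronal of the domain. It measured 280 ± 35.7 CPM in neurons (209 to 380, median 282) and 27.3 ± 20.6 in meningeal or Schwann nuclei, 23.6 ± 19.1 in oligodendrocytes, 19.1 ± 21.7 in the endothelial or vascular class and 17.1 ± 15.7 in astrocytes, where some samples had 0 UMIs. Neurons exceeded these by 10.3-fold, 11.8-fold, 14.4-fold and 16.3-fold. For each 100 Meg3 UMIs there were 0.964 ± 0.118 Mirg UMIs in neurons. This ratio was 0.470 ± 0.354 in meningeal or Schwann and 0.404 ± 0.257 in oligodendrocyte nuclei. Astrocytes had 0.355 ± 0.408 and endothelial or vascular nuclei 0.481 ± 0.568, and each of these 4 classes had samples at 0. Rian per 100 Meg3 UMIs was 2.34 ± 0.405 in neurons and 3.10 ± 0.740, 2.20 ± 0.796, 2.73 ± 1.36 and 2.25 ± 1.21 in those classes, in that order. The mean Mirg ratio was thus lower outside neurons, with a wide spread, while the mean Rian ratios lay on both sides of the neuronal one.

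Snhg11 was 6162 ± 1441 CPM in neurons, with a lowest sample of 4174, a median of 5826 and a highest of 9080. It was 711 ± 282 in oligodendrocytes, 639 ± 258 in meningeal or Schwann nuclei, 483 ± 242 in astrocytes and 377 ± 243 in the endothelial or vascular class. Neurons were higher in every sample, by 8.74-fold, 9.65-fold, 12.9-fold and 16.0-fold, and the ranges did not overlap. The precursor class stood between, at 2167 ± 905 (n = 6). Oligodendrocytes exceeded meningeal or Schwann nuclei in 15 of 23 samples, a smaller mean difference than its SD.

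Miat was 252 ± 41.1 CPM in neurons (159 to 320, median 249) and 47.1 ± 27.2, 45.6 ± 36.4, 29.7 ± 20.0 and 22.9 ± 28.9 in meningeal or Schwann, astrocyte, oligodendrocyte and endothelial or vascular nuclei. Neurons were higher in every sample. In the precursor class Miat was 189 ± 136 (n = 6), below neurons in 5 of 6 samples, with a mean difference smaller than its SD.

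Malat1 was lowest in neurons among the 5 large classes. Its level was 37085 ± 10369 CPM in neurons (28313 to 64251, median 32396), 47533 ± 10397 in the endothelial or vascular class, 50715 ± 14168 in astrocytes, 63137 ± 18995 in oligodendrocytes and 83481 ± 13837 in meningeal or Schwann nuclei (51436 to 109642). Each class exceeded neurons within the same sample, in 21 of 23, 23 of 23, 23 of 23 and 24 of 24 samples, although the ranges overlapped between samples. Meningeal or Schwann nuclei were above oligodendrocytes in 21 of 23 samples and oligodendrocytes above astrocytes in 23 of 23. Astrocytes were above the endothelial or vascular class in 15 of 22, a mean difference below its SD.

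Neat1 was low in neurons, at 48.1 ± 21.7 CPM (20.1 to 104, median 44.7). It was 1626 ± 348 in meningeal or Schwann nuclei, 1132 ± 304 in oligodendrocytes, 927 ± 290 in astrocytes and 366 ± 120 in the endothelial or vascular class, which were 33.8-fold, 23.4-fold, 19.2-fold and 7.72-fold above neurons. No range of these 4 overlapped the neuronal one. Meningeal or Schwann nuclei exceeded oligodendrocytes in 19 of 23 samples and oligodendrocytes exceeded astrocytes in 18 of 23. Malat1 and Neat1, neighbours on chromosome 19, thus shared the order of the 4 large classes outside neurons, but the spread between classes was wider for Neat1. Per 100 Meg3 UMIs, Neat1 had 0.165 UMIs in neurons and 10.6 to 31.4 in the 4 classes.

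The share of nuclei with a UMI went in the same direction after each nucleus was thinned to 500 UMIs, which leaves out shallower nuclei. Neat1 was seen in 2.63% of 6947 thinned neurons (95% Clopper-Pearson interval 2.27 to 3.04), and in 38.5% of oligodendrocytes, 44.7% of meningeal or Schwann nuclei and 33.8% of astrocytes. Without thinning the neuronal share was 9.60% at a median depth of 2214 UMIs and the oligodendrocyte share 61.6% at 1092. The shares of the neuronal RNAs in the 4 large classes outside neurons are given beside the neuronal ones, and the part of free RNA in them was not tested. Snhg11 was in 92.9% of thinned neurons and 17.9% to 29.1% of the 4 large classes, Mirg in 13.2% and 1.06% to 1.45%, Miat in 11.0% and 1.61% to 2.03%, and Rian in 27.4% and 4.80% to 7.99%. Meg3 was in 99.96% of thinned neurons and 81.1% to 89.4% of the 4 large classes, a small contrast in shares. Intervals cover counting error only.

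**Figure D1:**
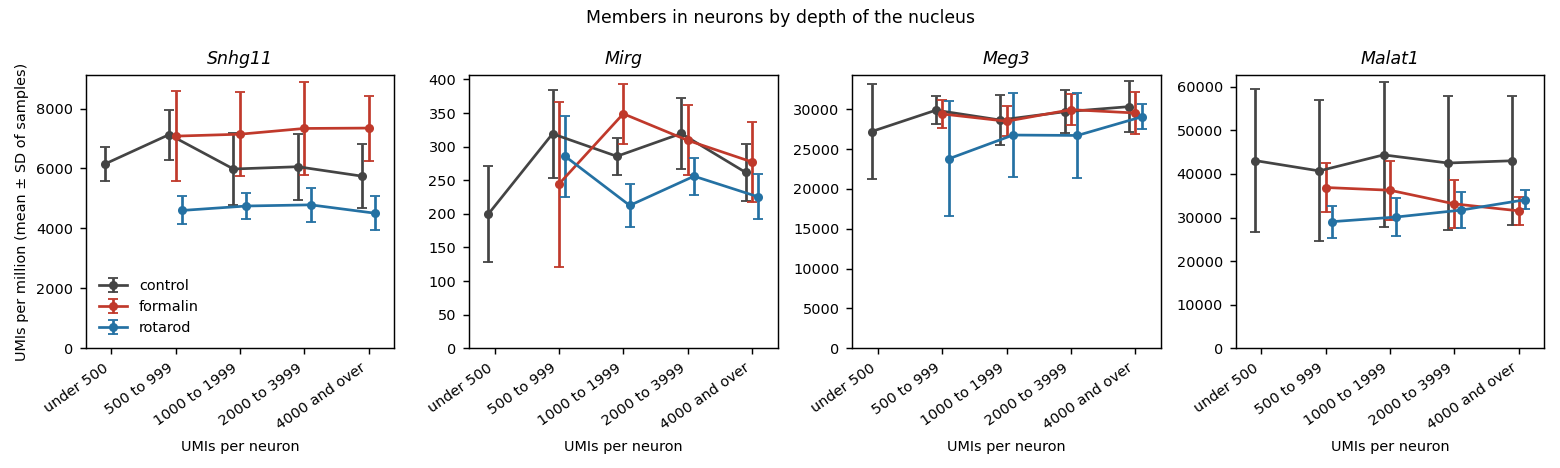
Level of Snhg11, Mirg, Meg3 and Malat1 (CPM, vertical axis, mean ± SD of samples) in neurons binned by total UMIs (horizontal axis), by group. With all samples pooled, Snhg11 in neurons stays between 0.568% and 0.620% of UMIs from the shallowest to the deepest bin. Malat1 in oligodendrocytes, which are not drawn, lies between 5.29% and 7.29%.

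Depth of the nucleus moved these shares little in neurons. Snhg11 supplied 0.588% of UMIs in neurons with under 500 UMIs and 0.568% in those with 4000 and over, and Malat1 3.86% and 3.87%. In oligodendrocytes the share of Malat1 was 5.84% in the shallowest nuclei and 7.29% in the deepest, while Snhg11 was 0.0826% and 0.0583%.

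Within neurons, Miat and Mirg differed between families. The deposited table gives 8 family codes, whose letters are taken here as position (D dorsal, M mid, V ventral) followed by transmitter type (E excitatory, I inhibitory), and VC and VM are left unread. Means are over samples with at least 5 nuclei of the family, 9 to 24 samples. Miat was 380 ± 90.4 CPM in VE, 360 ± 131 in VC, 287 ± 90.0 in VI, 251 ± 116 in ME, 243 ± 74.7 in DE, 239 ± 41.7 in VM, 185 ± 52.4 in MI and 113 ± 52.3 in DI. The step from MI down to DI was seen in 17 of 21 samples and that from VM to MI in 8 of 9, each larger than the SD of the difference. Between neighbours above them the mean differences were below their SDs. VE exceeded VC in 11 of 18 samples and VC exceeded VI in 16 of 20 (81.8 CPM, SD 136). Such an SD describes the spread of the samples and is no test of the mean difference. Across the order, VE exceeded DI in 18 of 18 samples, by 3.44-fold, and DE exceeded DI in 22 of 24.

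**Figure D2:**
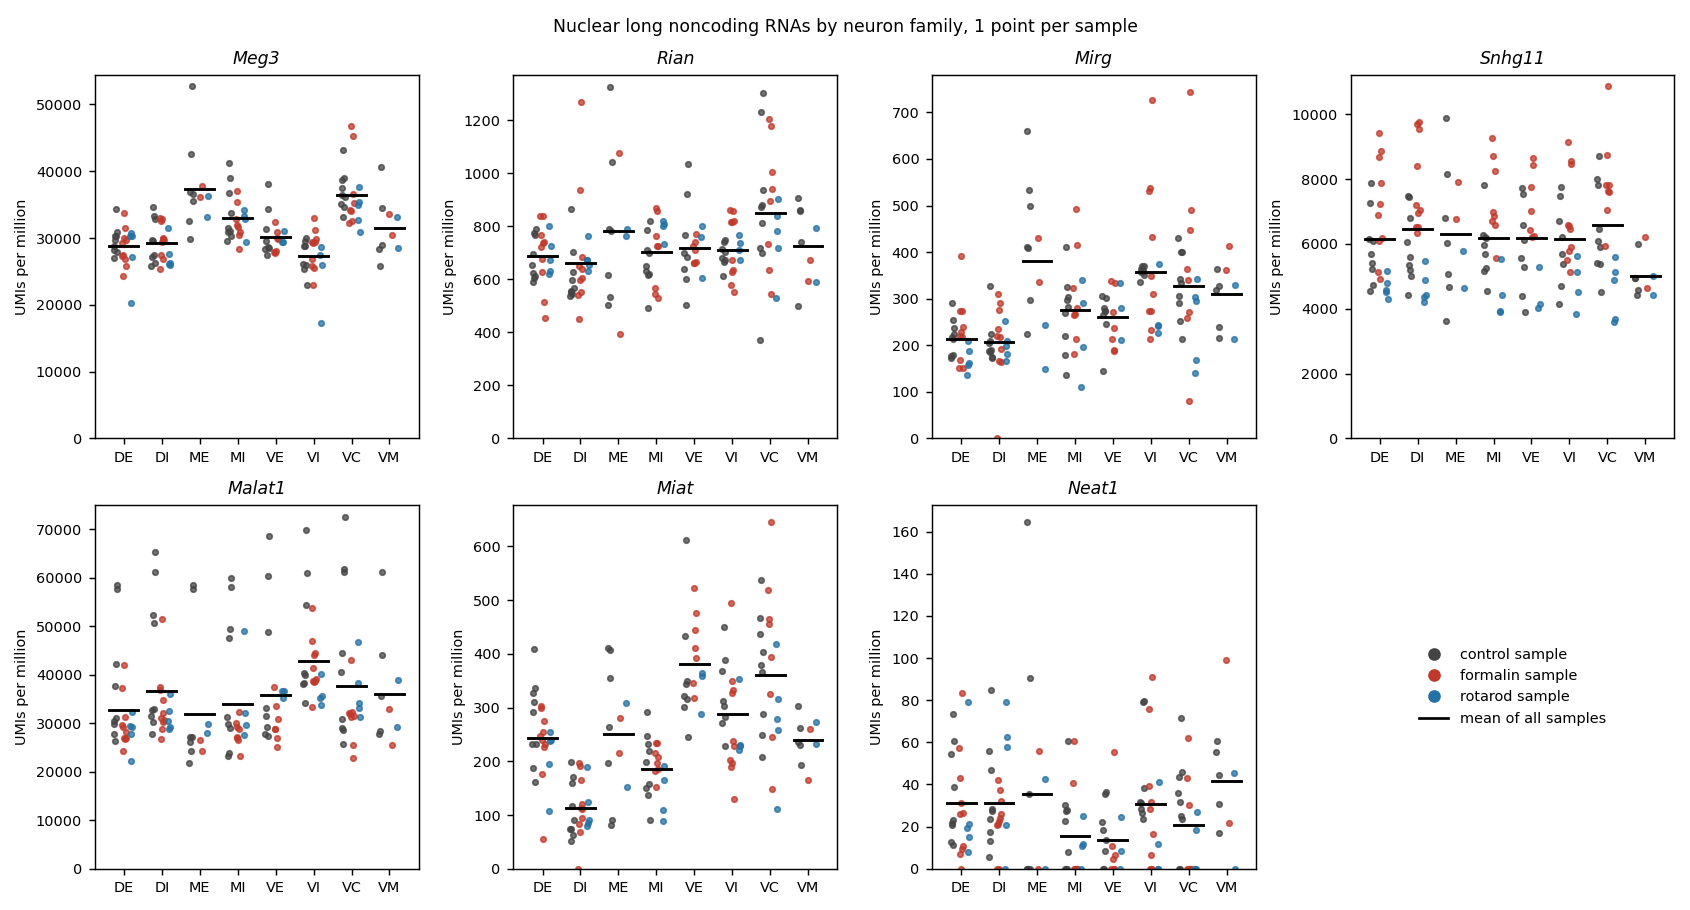
Level of each RNA (CPM, vertical axis from 0) in the 8 neuron families, 1 point per sample with the mean marked. DI is lowest for Miat, at 113 ± 52.3, while the families from VI to VC lie between 6150 and 6574 for Snhg11.

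Mirg was 381 ± 150 CPM in ME, 356 ± 120 in VI, 328 ± 136 in VC, 309 ± 70.9 in VM, 276 ± 93.3 in MI, 260 ± 54.4 in VE, 214 ± 56.9 in DE and 207 ± 63.6 in DI. The 2 dorsal families were lowest, and VE was above DE in 15 of 18 samples, though this mean difference of 48.8 CPM was below its SD of 74.1. Meg3 was 37274 ± 6043 in ME and 36493 ± 4106 in VC, against 32964 in MI, 31526 in VM, 30177 in VE, 29221 in DI, 28851 in DE and 27281 ± 3368 in VI. VC exceeded MI in 18 of 20 samples and DE exceeded VI in 17 of 22, but both mean differences, 3923 and 1436 CPM, were below their SDs of 4542 and 2461, and ME and VC did not separate (6 of 11). For Rian, the family means ran from 852 ± 237 in VC to 662 ± 168 in DI, and no neighbours differed by more than the SD of their difference.

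Snhg11 was 6574 ± 1801 CPM in VC, and DI, ME, VE, MI, DE and VI followed at 6450 to 6150, and no neighbours among these 7 differed by more than the SD of their difference. VM was 5024 ± 656 in the 9 samples with enough nuclei. In those samples DE was 5463, VI 5472 and DI 5713, and VM was below them in 6, 7 and 8 of 9, with a mean difference from VI of 448 CPM that was below its SD of 826. Malat1 had its highest mean in VI, at 42746 ± 9307. VI was above VC in 15 of 20 samples, though this mean difference of 6532 CPM was below its SD of 8821, above DI in 20 of 22 and above VE in 15 of 18, and the other 7 families lay between 31935 in ME and 37685 in VC. DE was below DI in 22 of 24. Neat1 was 13.6 to 41.6 in all 8 families, with samples at 0 in each. These means were below the 48.1 CPM of all neurons, which include nuclei without a family code. The part of those nuclei in the level of all neurons was not tested.

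The deposited table also divides the families into populations. Among the 41 with at least 20 control nuclei, pooled over control samples with no SD, Miat ran from 9.18 CPM in DI-1 (1 UMI in 35 nuclei) to 523 in DE-15 (70 UMIs in 43), with a median of 209. Populations of 1 family differed: DI-2, DI-6 and DI-3 had 19.4, 36.0 and 36.1, whereas DI-8 had 205, and DE-9 had 63.7 against 478 in DE-14. Mirg ran from 101 in DI-1 to 497 in VI-1, Rian from 291 in DI-2 to 993 in DI-5, Meg3 from 21225 in DE-7 to 42057 in DI-4 and Snhg11 from 3751 in DE-2 to 7783 in DI-5. Malat1 ran from 29910 in DE-2 to 63768 in VI-2. Neat1 was not seen in DI-2 and reached 139 in VI-4 (19 UMIs in 22 nuclei).

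Across the 14 units formed by the 6 classes other than neurons and the 8 families, Meg3 correlated with Rian at 0.98, with Mirg at 0.98 and with Snhg11 at 0.99, and with Neat1 at -0.95. Within the 41 neuron populations the same measures were 0.52 for Meg3 with Rian, 0.47 for Meg3 with Mirg, 0.55 for Rian with Mirg and 0.56 for Mirg with Miat. Malat1 and Neat1 correlated at 0.80 over the 14 units and 0.01 over the 41 populations. Neat1 had only 0 (DI-2) to 23 (VE-4) UMIs per population, near the counting floor, so the 2 values cannot be compared. The values over the 14 units also hold the difference between neuron families and the other classes. These are Pearson correlations of log2(CPM + 1) in control samples, and the points share libraries and depth.

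By the same measure, the genes most like each RNA over the 14 units, among 3623 searched, were Usp29, Ahi1 and Lingo2 for Meg3 (0.98 each), Crmp1, Snhg14 and Ahi1 for Rian, Crmp1, Snap25 and Madd for Mirg, and Fam135b, Srrm3 and Hecw1 for Snhg11. Miat was most like Unc5d, Upp2 and the sodium channel gene Scn1a. Neat1 was most like Qk (0.98), which encodes an RNA-binding protein of glia, Kansl1l and Rbbp6, and Malat1 was most like Fgf1 (0.90), the glial glutamate transporter gene Slc1a3 and Ptgds. Over the 41 populations, among 3283 genes, Meg3 was most like Nalcn, Xkr4 and Pde8b, Rian like Rps6ka5, Osbp2 and Cdh11, Mirg like Dync1h1 (0.77), Ctif and Cdh18, and Snhg11 like Trpm7 (0.70), Acsl1 and Tecr. Malat1 was most like Zranb2 (0.77), Peg3 and Nefh there, Miat like the secretory granule gene Chga (0.77), Dscam and March3, and Neat1 like Naa35, Rimbp2 and Faf2. For Neat1 these rest on 0 to 23 UMIs per population. No gene was among the 3 nearest to a member in both sets.

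The 3 groups were then compared, which asks whether a painful stimulus or a motor task changed these RNAs. In neurons 0 of the 7 passed edgeR's quasi-likelihood test (Benjamini-Hochberg adjusted p, threshold 0.05) in formalin or rotarod against control, where 0.0% of 9103 genes passed in either comparison. At an unadjusted p under 0.05 there were 766 and 782 genes, 2 of the 7 in each, and DESeq2 called 2 and 15 genes. Between formalin and rotarod, 1 of the 7, Snhg11, was called by edgeR, beside 2.15% of the 9103 genes (75 higher and 121 lower in formalin). Scaled by library size alone, which moved the median of all genes by 0.12 on the log2 scale, 116 were higher and 50 lower. The comparisons with control share the control samples.

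**Figure D3:**
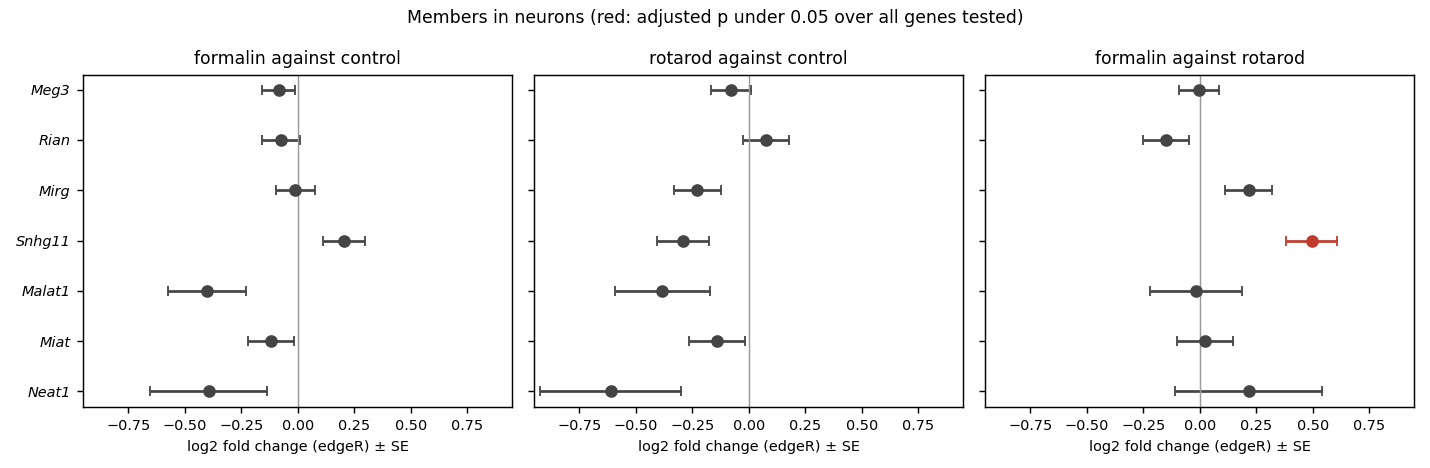
Log2 fold change of each RNA in neurons with its standard error (horizontal axis) for formalin against control, rotarod against control and formalin against rotarod, from edgeR. Snhg11 between formalin and rotarod, at 0.50 with a standard error of 0.11, is the one difference that passed the adjusted threshold.

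Snhg11 in neurons was 4479 to 7677 CPM in controls (median 5645), 5290 to 9080 in formalin samples (median 6747), and 4576, 4174, 4864, 5377 and 4427 in rotarod samples 1 to 5. The rotarod samples were low, all 10 formalin samples lay above the rotarod median, and the ranges overlapped only where formalin 1, at 5290, fell below rotarod 4. The means were 7120 ± 1368 (n = 10) and 4684 ± 461 (n = 5), a log2 fold change of 0.50 with a standard error of 0.11 (edgeR adjusted p = 0.0189). A two-sided exact permutation test of the means over samples gave p = 0.00233, among 21 such tests in neurons. Controls, at 5918 ± 1086 (n = 9), lay between, and edgeR gave 0.20 for formalin minus control (standard error 0.09, adjusted p = 0.564) and -0.29 for rotarod minus control (standard error 0.12, adjusted p = 0.429), with exact permutation p = 0.0521 and 0.0315.

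With each of the 5 formalin pairs merged, the exact permutation p was 0.0159, or 0.111 when adjusted over the 21 exact tests in neurons. The log2 fold change was then 0.48 and the edgeR adjusted p 0.0760, so the call was lost. It was also lost when nuclei were thinned to 500 UMIs (0.58, edgeR adjusted p = 0.0555) and without rotarod 2 (edgeR adjusted p = 0.0632).

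The same direction was seen outside neurons. In oligodendrocytes Snhg11 was 421 to 1160 CPM in controls, 515 to 1145 in formalin samples (median 919), and 339, 440, 215, 393 and 470 in the rotarod samples. Formalin and rotarod did not overlap, which held for 0.507% of 3158 genes, and the log2 fold change was 1.11 with a standard error of 0.22 (870 ± 220, n = 10, against 371 ± 100, n = 5; edgeR adjusted p = 0.0141, where 0.475% of genes passed). In the meningeal or Schwann class formalin samples had 553 to 1207 CPM (median 731) and rotarod samples 395, 319, 368, 316 and 400, also without overlap (0.183% of 3273 genes). There the log2 fold change was 1.11 with a standard error of 0.23 (799 ± 240 against 360 ± 40.1; edgeR adjusted p = 0.0371, 0.0611% of genes passed).

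In astrocytes, formalin samples had 276 to 1060 CPM (median 608) and rotarod samples 256, 371, 32.4, 248 and 301, which overlapped, and the latter rest on 66 UMIs in all. The log2 fold change was 1.24 with a standard error of 0.32 (edgeR adjusted p = 0.0376, 1.33% of 1804 genes passed). In the endothelial or vascular class it was 1.09 with a standard error of 0.34 and was not called (edgeR adjusted p = 0.243, 0.0% of 1334 genes passed). With formalin pairs merged, the edgeR adjusted p became 0.0868 in oligodendrocytes, 0.164 in meningeal or Schwann nuclei and 0.0682 in astrocytes, so these calls were lost at log2 fold changes of 1.10, 1.12 and 1.25. Leaving out 1 sample ended the call in 1 of 15 fits in oligodendrocytes (without rotarod 3), 7 of 15 in the meningeal or Schwann class (without formalin 3, 8 or 9 or rotarod 1, 2, 3 or 4) and 11 of 15 in astrocytes (all but formalin 4, 5, 9 and 10).

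**Figure D4:**
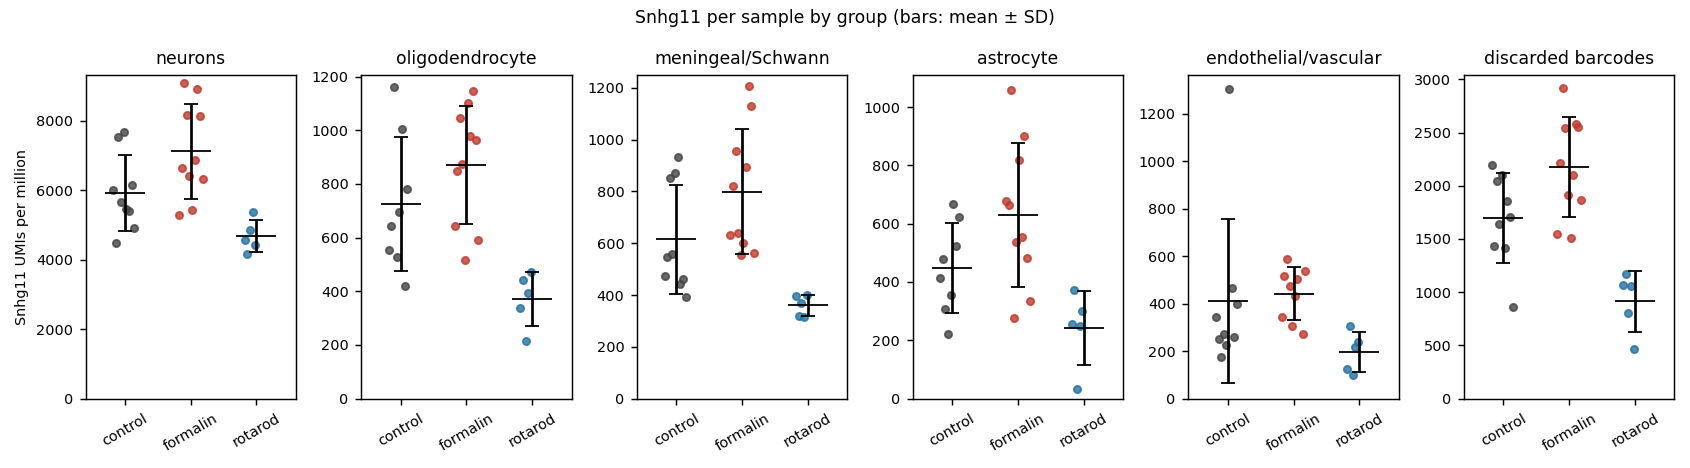
Snhg11 level (CPM, vertical axis) in every control, formalin and rotarod sample, by class, with group means. Rotarod samples in oligodendrocytes, at 215 to 470, all lie below the formalin samples, at 515 to 1145.

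Markers of neurons moved less than Snhg11 in these classes. The 9 neuronal marker genes summed to 2025 CPM (1203 to 2684) in formalin and 1564 (1259 to 1983) in rotarod oligodendrocytes, 2428 and 2015 in the meningeal or Schwann class, and 1875 and 1684 in astrocytes. In neurons they were 6735 and 6813. Set against those markers, Snhg11 per 100 marker UMIs was 106 ± 14.2 in formalin neurons (84.2 to 129) and 68.9 ± 6.95 in rotarod neurons (59.5 to 76.5), without overlap. In the other 3 classes the ranges overlapped. Formalin and rotarod means were 44.7 (24.0 to 72.7) and 24.3 (14.9 to 35.0) in oligodendrocytes. They were 33.1 (20.2 to 49.1) and 18.5 (13.5 to 25.2) in meningeal or Schwann nuclei and 33.0 (21.4 to 48.5) and 15.6 (2.86 to 33.9) in astrocytes. Whether free neuronal RNA contributed to the difference outside neurons was not tested. A test of the difference between the effect in neurons and in another class passed for 0 of 84 member comparisons in edgeR, with a smallest unadjusted p of 0.00495 (Malat1 in oligodendrocytes) and 0.00989 for Snhg11 between formalin and rotarod in oligodendrocytes.

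Other measures also moved with these groups. Neurons of formalin samples had a median of 1633 UMIs against 2335 in rotarod, and mitochondrial RNA took on average 0.653% of neuronal UMIs in formalin and 1.09% in rotarod samples. Within neurons of at least 1000 and under 2000 UMIs, mean Snhg11 was 7143 CPM in formalin and 4747 in rotarod, and within those of 4000 and over 7348 and 4507. Gene span moved with the comparison too: over 8949 genes in neurons, the log2 fold change between formalin and rotarod correlated with the log10 span at -0.45. Genes spanning 5 to 20 kb, as Snhg11 does, had a median of 0.23 in neurons and 0.28 in oligodendrocytes. Their median was 0.22 in meningeal or Schwann nuclei and 0.29 in astrocytes. Snhg11 less the median of the same class was 0.26, 0.83, 0.89 and 0.95, in that order. In neurons Snhg11, at 0.50, lay inside the 5th to 95th percentiles of these genes, -0.32 to 0.81. In oligodendrocytes it was 1.11 against a 95th percentile of 1.09. In meningeal or Schwann nuclei it was 1.11 against 0.95, and in astrocytes 1.24 against 1.11.

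Among neuron families the difference was called in DI. Formalin samples had 6349 to 9770 CPM (median 7125) and rotarod samples 4197, 4358, 4895, 5478 and 4428, without overlap (0.212% of 2356 genes). The log2 fold change was 0.71 with a standard error of 0.16 (7801 ± 1415, n = 10, against 4671 ± 520, n = 5; edgeR adjusted p = 0.0263, 0.17% of genes passed). It was not called with formalin pairs merged (0.69, edgeR adjusted p = 0.0545), without the filter on low counts (0.51, adjusted p = 0.620) or in 7 of 15 fits that left out 1 sample (formalin 3, 8 or 9 or rotarod 1, 2, 3 or 5). In the other 5 families with a fit the log2 fold change was 0.49 in VI, 0.60 in DE, 0.63 in VE, 0.74 in MI and 0.84 in VC, with edgeR adjusted p of 0.502, 0.0932, 0.241, 0.254 and 0.168, and 0.0% of genes passed in each.

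Mirg in neurons was 251 to 318 CPM in controls (median 284), 251 to 380 in formalin samples (median 293), and 231, 250, 209, 223 and 264 in the rotarod samples. Rotarod samples were low, with 0 of 5 above the control median, although the ranges overlapped. The rotarod mean of 236 ± 22 was below the control mean of 284 ± 21.9 (two-sided exact permutation p = 0.00300, n = 5 and 9) and the formalin mean of 298 ± 33.9 (exact permutation p = 0.000999, n = 10). With formalin pairs merged the latter exact permutation p was 0.00794, the smallest that 5 samples against 5 allow. Adjusted over the 21 exact permutation tests in neurons, p was 0.0210 in both Mirg comparisons before merging. After merging, the adjusted exact permutation p was 0.0629 for rotarod against control and 0.0833 for formalin against rotarod. Neither difference passed edgeR over all genes, at -0.23 (standard error 0.11, adjusted p = 0.549) and 0.22 (adjusted p = 0.262).

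Meg3 and Rian, the neighbours of Mirg in the domain, had overlapping ranges in the 3 groups. Meg3 in neurons was 25987 to 35106 CPM in controls (median 29066), 26748 to 33153 in formalin samples (median 29272), and 30627, 28805, 20273, 29784 and 27625 in the rotarod samples, of which the third was lowest. The log2 fold changes were -0.08, -0.08 and -0.00 for formalin minus control, rotarod minus control and formalin minus rotarod. Rian had -0.07, 0.08 and -0.15 and Miat -0.12, -0.14 and 0.02. Neat1, with 20.1 to 104 CPM in neurons, had -0.39, -0.61 and 0.22. None of these was called by edgeR.

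Malat1 in neurons split the control group. Controls 1, 2, 3, 5 and 6 had 29363 to 32861 CPM and controls 4, 7, 8 and 9 had 50594 to 64251, of which 7 to 9 are the samples with cx in their titles. Formalin samples had 28313 to 43509 (median 31722) and rotarod samples 34750, 30010, 30052, 34718 and 32188. The log2 fold change was -0.40 for formalin minus control and -0.38 for rotarod minus control, not called, and without the 3 cx samples these were -0.02 and -0.01. In oligodendrocytes, controls 4, 7 and 8 likewise had 94126 to 114507 CPM and the other controls 47631 to 57563. There formalin samples had 42877 to 57149 CPM (51145 ± 5319) and rotarod samples 71213, 64523, 75843, 73286 and 72720 (71517 ± 4252), without overlap (0.507% of 3158 genes), a log2 fold change of -0.54 with a standard error of 0.19. This was not called over the 3 groups (edgeR adjusted p = 0.180) and was called with the 2 groups alone (-0.52, adjusted p = 0.000170, where 0.741% of 2699 genes passed) or without the cx controls (-0.54, adjusted p = 0.00486, 0.768% of 2995 genes). With formalin pairs merged it was -0.53 (edgeR adjusted p = 0.415).

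Lists of genes with related roles are given next for neurons, and in both comparisons with control edgeR called 0 of each list below. Of the Dlk1-Dio3 domain's other genes, 4 were tested and 0 were called between formalin and rotarod, Dlk1 at 0.48 and B830012L14Rik at -0.50. The list's median log2 fold change was 0.09 beside 0.01 over all genes. Of 4 tested small nucleolar RNA host genes 0 were called, Gas5 at 0.35 and Snhg14 at -0.14, with a median of -0.01. Of 21 other long noncoding RNAs 3 were called (14.3%, beside 2.15% of all genes). Mir124a-1hg, a host of the neuronal microRNA miR-124, was higher in formalin (153 ± 55.1 against 72.0 ± 18.3 CPM), by 0.96 on the log2 scale (edgeR adjusted p = 0.0225), and Gm26917 (-0.96) and Lncpint (-0.43) were lower. The median of that list was -0.14. With formalin pairs merged, when edgeR called 4 genes in all, none of the 3 was called (adjusted p = 0.0760 for Mir124a-1hg, 0.104 for Gm26917 and 0.144 for Lncpint).

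Among genes for nuclear speckle and splicing factors, edgeR called 3 of 22 tested between formalin and rotarod neurons (13.6%, beside 2.15% of all genes). The splicing factor genes Srsf5 (115 ± 33.6 against 55.7 ± 5.33 CPM, a log2 fold change of 0.90) and Srsf7 (0.77) were higher in formalin and Celf4 (-0.47), which encodes an RNA-binding protein of neurons, was lower, with a median of 0.15 over the list. With formalin pairs merged none of the 3 was called (edgeR adjusted p = 0.0629 for Srsf5, 0.104 for Srsf7 and 0.0816 for Celf4). Of the 12 mitochondrially encoded genes tested 0 were called, and 12 of 12 were negative with a median of -0.68.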

How the data were processed

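The authors deposited raw UMI counts per gene and nucleus and a table of classes, with populations for some of the neurons. The builds mm10 and GRCm38 come from the submitters' processing notes. Not given in the sources used here are the aligner, the annotation, the strand setting and the handling of introns. Barcodes were matched to samples by name, and the deposited classes were used. Doublets were not called.

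Counts were summed per sample and class (at least 10 nuclei) or neuron family (at least 5), with 549903 to 3243587 UMIs per sample in all. Sums were tested over all genes with edgeR 4.0.16 in R 4.3.3 (TMM, expression filter by group, robust quasi-likelihood fit, 1 fit over 3 groups, at least 3 samples per group, Benjamini-Hochberg threshold 0.05). DESeq2 1.42.0 was an alternative. CPM is UMIs per 1000000 of the same nuclei. For single values, samples were permuted between 2 groups in a two-sided exact test. Python 3.11.15, numpy 2.4.6, scipy 1.17.1, pandas 2.3.3 and matplotlib 3.10.9 were used. The edgeR step was tested on simulated data.

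The 7 genes, the gene lists and the tests were chosen with earlier results of these data known. Named besides the 7 are, for each, the 3 genes with the highest correlation over classes and families and over populations (mean of at least 50 CPM, populations of at least 20 control nuclei, no predicted or clone-based symbols), and for each list up to 4 called genes or, with none called, the 2 with the smallest p. One gene list and some marker genes are not reported here. The comparison with genes of like span, the discarded barcodes, the depth bins by group and the merged pairs in the gene lists and discarded barcodes were added after seeing the data.

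Formalin and rotarod samples share replicate numbers. Same-numbered samples 1 to 5 correlated at -0.00737, 0.136, -0.220, 0.0648 and -0.0786 in their deviations from the group means, so the numbers were not taken to pair samples.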

Additional observations from a re-analysis of the deposited data

Results flagged for a closer look

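A sample far from the others of its group was found in 4 of 72 groups of 4 to 10 samples with at least 100 UMIs of the gene, by the gap of the extreme sample over the range. Chance gives about 1 in 20. Meg3 in neurons of rotarod sample 3 was 20273 CPM, the next lowest rotarod sample being 27625. Mirg in neurons of formalin sample 8 was 380 CPM, Snhg11 in the endothelial or vascular class of control sample 6 was 1304 CPM, and Neat1 in oligodendrocytes of formalin sample 6 was 1578 CPM.

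Barcodes that the authors discarded are outside the main comparisons, and 2 of the RNAs had an unadjusted exact permutation p under 0.05 there between formalin and control samples. Snhg11 was 2176 ± 472 CPM (n = 10) in formalin, 1695 ± 422 (n = 9) in control and 913 ± 283 (n = 5) in rotarod samples, with 8 of 10 formalin samples above the control median. A two-sided exact permutation test gave p = 0.0325 for formalin against control, 0.000333 for formalin against rotarod and 0.00450 for rotarod against control. Rian was 514 ± 63.1 CPM in formalin and 428 ± 93.9 in control samples (exact permutation p = 0.0289, 8 of 10 above the control median) and 359 ± 32.0 in rotarod samples (exact permutation p = 0.000666 for formalin against rotarod). With each of the 5 formalin pairs merged, the exact permutation p for formalin against control was 0.0809 for Snhg11 and 0.0814 for Rian, and for formalin against rotarod it was 0.00794 for both, the smallest that 5 samples against 5 allow. The first 5 p-values are among 42 such tests in discarded and unlabelled barcodes, and none here is adjusted.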

How the results depend on the processing

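No result reversed under the alternatives run. Of the fold changes of the 7 RNAs under an alternative, 3867 stayed on their side of the threshold, 35 fell out of it, 9 passed into it and 2 moved; for the exact tests these were 417, 3 and 7. In 239 of 4336 comparisons a difference that was not called on either side changed sign. Class and family levels moved by less than 1 SD in 494 cases and by more in 3, all with nuclei thinned to 500 UMIs (Miat in ME 397 and VM 154, Mirg in VM 229 CPM).

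Genes called in neurons for formalin minus control were 0, with DESeq2 2, without the filter 31 and leaving out 1 sample 0 to 1. For rotarod minus control they were 0, with DESeq2 15, without the filter 43, with formalin pairs merged 2, with only the 2 groups 1, without the cx controls 3, with only neurons placed in a population 1 and leaving out 1 sample 0 to 11. For formalin minus rotarod they were 196, with pairs merged 4, thinned 10, with only placed neurons 92 and leaving out 1 sample 60 to 239; of the 7 RNAs, 1 was called and 0 with pairs merged or thinned, and 0 to 1 leaving out 1 sample. Between formalin and rotarod the count moved by over 1.5 times without formalin 3, 4, 8 or 9 (120, 121, 119 and 129 genes) or rotarod 1 to 5 (90, 82, 60, 123 and 118), for rotarod minus control without control 2, 6, 7 or 9 or rotarod 1 or 2, and for formalin minus control without formalin 5.

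The Snhg11 log2 fold change, formalin minus rotarod, lost its call with pairs merged in neurons (0.48, edgeR adjusted p = 0.0760), oligodendrocytes (1.10, 0.0868), the meningeal or Schwann class (1.12, 0.164), astrocytes (1.25, 0.0682) and DI (0.69, 0.0545), thinned in neurons (0.58, 0.0555) and astrocytes (1.51, 0.0835), and without the filter in DI (0.51, 0.620). Less the median of genes of like span in the same class it was 0.26 in neurons and 0.83 in oligodendrocytes. The fold change itself lay inside the 5th to 95th percentiles of those genes in neurons and just above them in oligodendrocytes. Leaving out 1 sample gave 0.46 to 0.55 in neurons, 0.98 to 1.22 in oligodendrocytes, 1.02 to 1.17 in the meningeal or Schwann class, 1.02 to 1.45 in astrocytes and 0.66 to 0.76 in DI. Other values that passed only under an alternative were Malat1 in oligodendrocytes for formalin minus control without the filter (-0.65, edgeR adjusted p = 0.000242) and Snhg11 there for rotarod minus control (-0.96, 0.0261), and between formalin and rotarod Snhg11 in MI and VC with DESeq2 (0.74 and 0.86, adjusted p = 0.0235 and 0.00583) and in DE without formalin 1, formalin 6 or rotarod 4 (0.64, 0.65 and 0.64).

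With the replicate number of formalin and rotarod samples 1 to 5 as a block, 31 genes were called in neurons and Snhg11 was 0.50 (edgeR adjusted p = 0.0464). No formalin sample correlated best with the rotarod sample of its own number. The exact test of Snhg11 for rotarod minus control, leaving out 1 sample, ran from -0.39 to -0.28 on the log2 scale with permutation p up to 0.0699. The cause of these changes was not tested. Counts under 100 UMIs per group limit Snhg11 in rotarod astrocytes, and Mirg and Miat were below the filter in every class tested outside neurons.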
